A study of Bos taurus with 8 samples.

Results

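Bovine morulae of day 5 were compared with blastocysts of day 9 on 4 of the 8 samples of the series. The members were taken by the stage that the labels give: 2 samples of morulae (n = 2) and 2 of intact blastocysts (n = 2). The other 4 samples were 2 of inner cell mass (ICM) and 2 of trophectoderm (TE) cut from day 9 blastocysts. They served to place genes within the blastocyst and to estimate the spread in the fit. All embryos, in both groups, came from oocytes of slaughterhouse ovaries that were matured in vitro, fertilized with frozen-thawed sperm of a single bull and cultured in synthetic oviduct fluid, and days were counted from fertilization. No inhibitor was given to either group, and breed and genotype were not given in the sources used here. Each sample is RNA of pooled embryos that was amplified in 2 rounds, so single embryos were not measured, and an intact blastocyst gives the mixture of its cell types.

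A morula is a compacted ball of cells that still divide without growth of the embryo. Pumping of ions and water across its outer cells, once these are sealed by tight junctions, opens the cavity of the blastocyst. The outer cells then form the TE, a polarized epithelium that will build the embryonic part of the placenta, and the inner cells form the ICM, with the pluripotent epiblast and the primitive endoderm. In cattle the embryo stays free in the uterus for many days before it attaches, and the TE of this period takes up lipid and starts to make placental products such as the pregnancy-associated glycoproteins.

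RNA of each sample and of a common blastocyst pool was hybridized together to arrays of 43653 gene probes. Replicate 1 of each group was labelled with Cy3 and replicate 2 with Cy5. Values are the log2 ratio of sample to pool, with loess applied within each array, so that 0 is the level in the pool. They are given for replicate 1 and then replicate 2 of each group. A value is a share of the RNA and not an amount per embryo, and fewer cells of a type and less RNA per cell cannot be told apart. Differences were fitted with limma over all 8 arrays with dye orientation, which equals the replicate number, as a block. To be called, a gene had to differ by 2-fold or more with an adjusted p below 0.05 (Benjamini-Hochberg over all gene probes). Each of the 12552 named genes stands for its brightest probe. Each stage has 2 replicate pools. The p-values rest on the spread between replicates over all 8 arrays, ICM and TE included, and not on that of the stages alone. They cover no wider spread, so all values are imprecise to that extent.

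The median probe intensity was 403 and 536 units in the morula samples and 311 and 478 in the blastocyst samples, and 90.2% to 94.8% of the probes lay above the background. The log2 ratios spread with a standard deviation of 0.753 and 0.802 in morulae and 0.193 and 0.231 in blastocysts, whose own RNA resembles the pool. A note in the study's supplement equates the blastocyst samples with parts of that pool, so their values can oppose each other around 0 by construction (r = -0.55 across gene probes, against 0.92 in morulae). The effect of this on the p-values was not tested. In 17 genes, chosen after their values were seen, the stages differed at least 2-fold in opposite directions in the 2 replicates. Morula replicate 2 and blastocyst replicate 1 were the higher samples of each of them. The choice of these genes itself favours this order or its reverse. *LUM*, a collagen-binding proteoglycan of connective tissue, stood at -3.64 and 0.45 in morulae and at 0.79 and -3.49 in blastocysts. None of these genes was called, and their part in other results was not tested.

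Of the genes, 2178 were called, which is 17.4% of those tested. The blastocyst was higher for 1280 genes (10.2%) and the morula for 898 (7.15%). The differences were larger in the blastocyst direction, with a median of 3.10-fold among the called genes against 2.55-fold. At least 4-fold apart were 434 genes in the direction of the blastocyst and 135 in that of the morula. At 30-fold or more stood 16 genes against 1. With the arrays centred on their median in place of loess, the split turned, with 1261 genes higher in the morula and 1072 in the blastocyst. No gene called in both of these analyses changed its direction. Where another setting ended a call, it is named beside the gene: background correction by the normexp model (normexp), the average of a gene's probes (mean over probes), or the log2 ratios that the authors deposited (series matrix values).

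The stages were also compared within each dye orientation, that is, replicate 1 with replicate 1 and replicate 2 with replicate 2. All 2178 called genes had the same direction in both, which the call itself nearly requires. A difference of at least 2-fold was present in both replicates for 1065 of the 1280 genes that rose and for 694 of the 898 that fell. The call itself favours this too. Over all genes, 1760 of 12552 (14.02%) had such a difference in the same direction in both. The median difference was 3.14-fold and 3.18-fold in the genes that rose and 2.49-fold and 2.75-fold in those that fell. Across all 12552 genes, which are not independent replicates and share their arrays, the 2 differences correlated with r = 0.882. In 1 called gene the ranges of the 2 groups overlapped, and the call itself favours ranges that do not. Overlap was not counted over all genes, so no result is drawn from this.

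**Figure D1:**
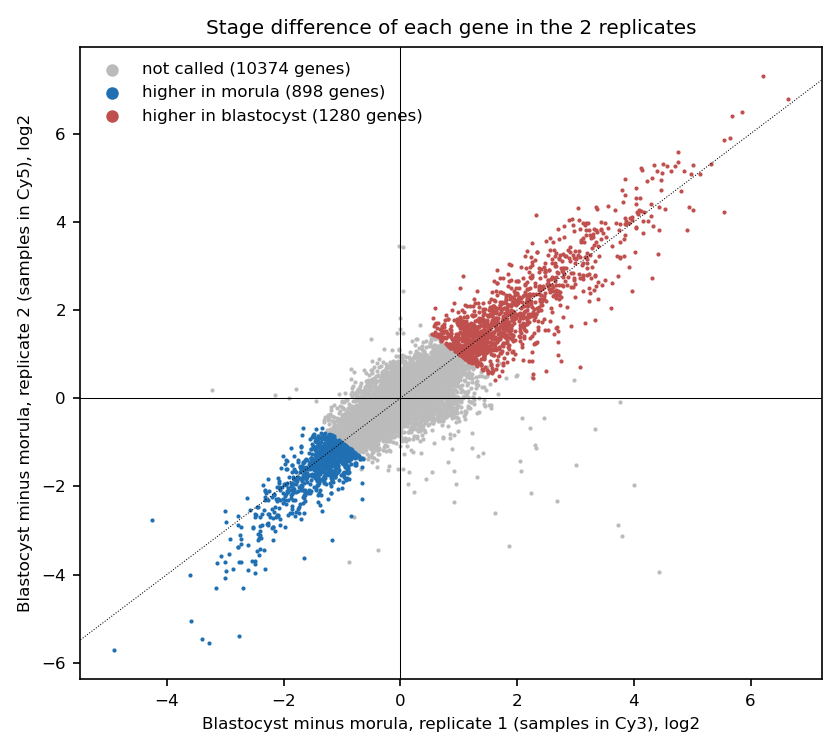
Log2 difference between blastocyst and morula of each gene in replicate 1 (x axis, samples in Cy3) and in replicate 2 (y axis, samples in Cy5); each point is 1 of 12552 genes, coloured by its call. The called genes follow the diagonal, the 1280 genes higher in the blastocyst reach farther from 0 than the 898 higher in the morula, and a few uncalled genes lie in the quadrants of opposite sign.

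More than 1 probe stood for 1672 of the called genes. A further probe was called the same way for 704 of them and the opposite way for 16, and 526 genes that were not called had another probe that was. *SOD1*, the cytosolic superoxide dismutase, had 5 probes, all called, from 1.74 to 2.51 on the log2 scale. *PAG2* had 8, all called, from 2.07 to 4.92. *DSP*, the desmosomal plaque protein desmoplakin, was 12.0-fold higher in the blastocyst by the brightest of its 6 probes, while no other probe was called and the lowest stood at -0.27. The position of the probes along the transcripts was not used here.

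Both morula arrays were at the background for 12 of the genes higher in the blastocyst, and both blastocyst arrays for 4 higher in the morula. In 20 genes higher in the morula both morula arrays were saturated. For these genes the fold is a lower bound, computed from the normalized signals of the sample channels, which are open to dye bias. *KLF4*, a factor of pluripotent and epithelial cells, was in this way at least 4.92-fold higher in the morula, where the ratios to the pool gave 5.49-fold. Such bounds are written below as at least N-fold. Of the genes named below, *ABCC2*, *ADAM9*, *ANXA3*, *ASCL2*, *CLDN23*, *CTH*, *HSD3B1*, *KIT*, *PLS1*, *PPL*, *TFAP2A* and *WTIP* were above the background on 1 of the 2 morula arrays, *KPNA7* on 1 of the 2 blastocyst arrays and *ID3* on 1 of each.

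Genes stored by the oocyte were higher in the morula where they were called. Of 32 measured members of the list, 11 were higher in the morula and 0 in the blastocyst, with a median difference of -0.44 on the log2 scale against 0.04 over all genes. *CPEB1*, which holds maternal messages untranslated until their poly(A) tail grows, stood at 2.98 and 3.65 in the 2 morula samples and at -0.03 and -0.07 in the blastocysts. It was 10.3-fold higher in the morula (log2 standard error 0.18, adjusted p = 9.8e-05, limma). *GDF9*, a growth factor that the oocyte secretes to its follicle, gave 2.78 and 2.90 against 0.25 and -0.05, a 6.65-fold difference. The groups lay far apart in both genes, and the morula samples were the high ones.

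*BTG4*, an adaptor for the removal of maternal messages, was 6.79-fold higher in the morula, *FBXO5*, an inhibitor of the anaphase-promoting complex, 7.96-fold and *KPNA7*, an importin of the oocyte, 8.60-fold. *OOSP2*, an oocyte-secreted protein, and *ZP4*, a protein of the zona pellucida, followed at 5.41-fold and 4.53-fold. The other 21 measured genes of the list were not called. *ZP3*, another zona protein, stood at -0.08 and -0.25 in morulae and at -0.03 and 0.08 in blastocysts (adjusted p = 0.27, limma). Without blastocyst replicate 2, 1 gene of the list was called higher in the blastocyst, and among probes in the upper 60% of intensity 7 were higher in the morula.

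The genes that the embryo itself first transcribes went both ways. Of 16 measured, 4 were higher in the morula and 1 in the blastocyst, with a median of -0.63. *ARGFX*, a homeobox gene of cleavage embryos, was 16.8-fold higher in the morula, at 3.14 and 5.20 against 0.38 and -0.18. Its morula samples lay apart from each other, but neither came near the blastocysts. *KLF4* and *KLF6*, zinc finger factors of the same family, differed in opposite directions: *KLF4* stood at 2.42 and 2.43 in morulae and -0.02 and -0.04 in blastocysts, *KLF6* at -1.90 and -2.72 against -0.03 and 0.33. *KLF6* was 5.49-fold higher in the blastocyst (adjusted p = 0.00086, limma), and this pair was chosen after the values were seen. *KLF5* of the same family gave -0.67 and -1.10 against -0.28 and 0.18, a 1.78-fold difference that missed the 2-fold minimum. Without replicate 1 of either stage, 2 genes of the list were called higher in the blastocyst.

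Of 24 pluripotency factors measured, 3 were called, each higher in the morula: *KLF4*, *SOX2* and *PRDM14*, which is 12.5% beside 17.4% of all genes. *PRDM14*, a repressor that guards the pluripotent and germ cell state in the mouse, stood at 1.38 and 1.26 in morulae and -0.02 and 0.20 in blastocysts, 2.35-fold apart (adjusted p = 0.0023, limma). *SOX2* was 4.89-fold higher in the morula, and 3 of its 4 other probes were called the same way. *NANOG* was 1.84-fold higher in the blastocyst, under the 2-fold minimum, and within the day 9 embryo it was 13.2-fold higher in the ICM. *POU5F1* was not analysed here. Leaving out any 1 of the 4 samples added 1 or 2 genes of the list that were called higher in the blastocyst.

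**Figure D2:**
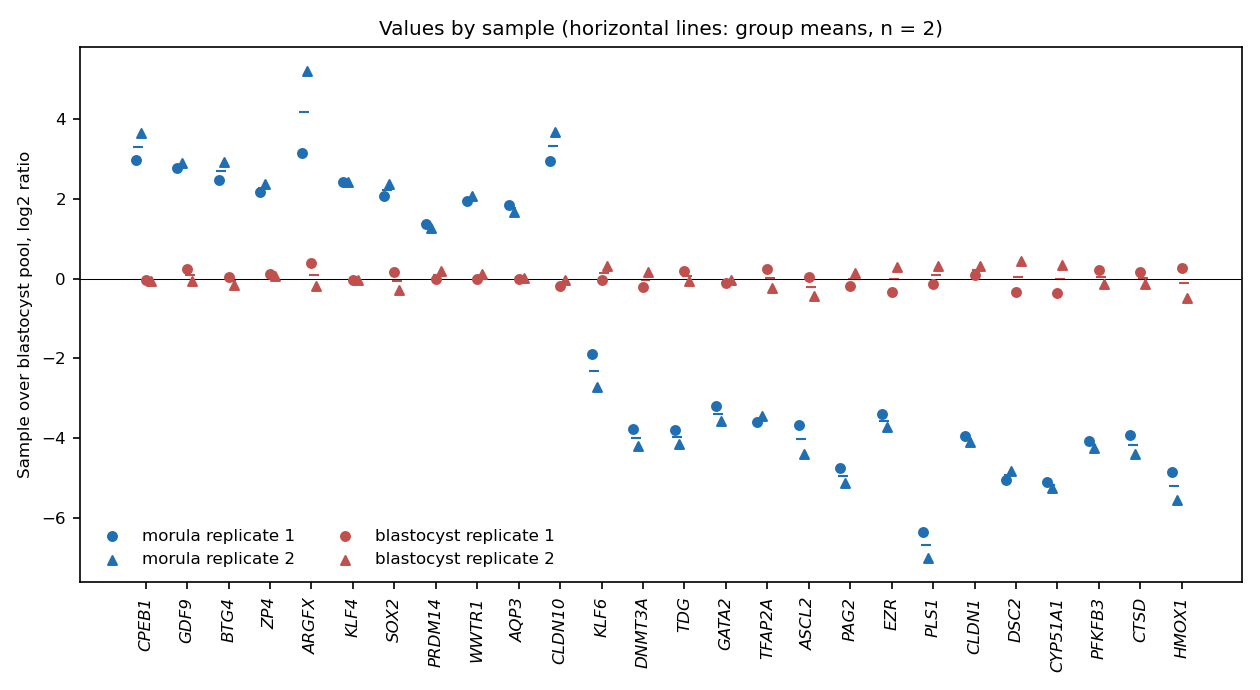
Log2 ratio of the sample over the blastocyst pool (y axis) for 26 genes (x axis) in the 2 morula samples (blue) and the 2 blastocyst samples (red), with circles for replicate 1 and triangles for replicate 2. The blastocyst samples lie near 0, the morula samples above them for the first 11 genes and below them for the other 15, down to -7.00 for *PLS1*.

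Trophoblast genes were called mostly in the direction of the blastocyst. Of 46 measured, 12 rose and 2 fell, with a median of 0.46. Among its transcription factors, *GATA2* stood at -3.20 and -3.58 in morulae and at -0.10 and -0.03 in blastocysts, 10.0-fold apart. *TFAP2A*, which shares targets with *GATA2* in trophoblast, gave -3.58 and -3.46 against 0.25 and -0.23, 11.6-fold apart. *ASCL2*, needed for the placental spongiotrophoblast in the mouse, was 14.3-fold higher in the blastocyst. In each the 2 morula samples were the low ones and lay within 1 log2 unit of each other. *TFAP2C*, a related factor, stood at -0.12 and 0.41 against -0.23 and -0.08 and was not called (adjusted p = 0.26, limma), but both morula arrays were saturated. *CDX2* and *KRT18* were not analysed here.

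Other placental genes rose too. *HSD3B1*, an enzyme of progesterone synthesis, was 14.9-fold higher in the blastocyst, and *PLAC8*, a gene first known from placenta, 26.0-fold, though the brightest of the *PLAC8* probes that was not saturated was not called. The pregnancy-associated glycoproteins are secreted relatives of pepsin made by ruminant trophoblast. Of 11 measured, 6 rose, from 4.69-fold for *PAG4* to 30.3-fold for *PAG2*, and 5 were not called. *PAG6* stood at -4.34 and -4.60 in morulae and 0.08 and -0.26 in blastocysts, and *PAG17* at -4.24 and -4.55 against 0.05 and -0.14. *PAG9*, *PAG10*, *PAG12* and *PAG20* differed by -0.13 to 0.08 on the log2 scale by their brightest probes, that of *PAG12* being saturated in morulae. Probes can cross-hybridize between such close relatives, so the single members are uncertain. Against the direction of the list, *PHLDA2*, an imprinted gene that restrains placental growth in the mouse, was 3.65-fold higher in the morula, at 1.75 and 2.06 against 0.16 and -0.09.

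Of 28 primitive endoderm genes, 7 rose and 3 fell, with a median of 0.13. *APOA1*, the main protein of high-density lipoprotein, stood at -5.03 and -4.42 in morulae and -0.01 and -0.16 in blastocysts and was 24.9-fold higher there. *CTSZ*, a lysosomal protease, was 17.6-fold higher, and *LRP2*, the endocytic receptor megalin, 2.99-fold. *SPARC*, a matrix glycoprotein, differed the other way, 2.90-fold higher in the morula, and 4 of its 5 other probes were called likewise.

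The proteins that shape an epithelial cell formed one of the larger groups. Of 63 actin, keratin and microvillus genes, 24 rose and 1 fell, with a median of 0.41. *PLS1*, which bundles actin in microvilli, showed the largest difference of all genes, 109-fold with loess, at -6.35 and -7.00 in morulae and -0.13 and 0.31 in blastocysts. *EZR*, or ezrin, which ties actin to the membrane of microvilli, stood at -3.40 and -3.73 against -0.34 and 0.30, 11.7-fold apart, and its scaffold partner *NHERF1* was 11.5-fold higher in the blastocyst. A second scaffold of the apical membrane, *PDZK1*, rose 32.6-fold. *ARPC1B*, a subunit of the complex that branches actin, rose 14.3-fold, *CNN2*, a calponin, 35.3-fold and *LIMA1*, which stabilizes actin bundles, 10.9-fold.

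*ACTB*, the cytoplasmic actin that often serves as a reference gene, was 14.3-fold higher in the blastocyst, at -3.95 and -3.98 against 0.46 and -0.71. Its 3 probes ranged from 0.89 to 3.84, and 2 were called. *TMSB10*, a thymosin that binds actin monomers, gave -0.01 and -0.31 against -0.18 and -0.38 and was not called, with both morula arrays saturated. The brightest *ACTB* probe had a mean log2 intensity of 10.6, against 15.6 for that of *TMSB10*. How well this *ACTB* probe tracks its transcript was not tested. Of the 12 reference genes measured, *HPRT1*, a purine salvage enzyme, was 4.64-fold higher in the morula, and 10 were not called. The share called was 16.7% beside 17.4% of all genes. *YWHAZ* stood at -0.20 and 0.09 in morulae and -0.01 and 0.20 in blastocysts, and *TBP* at 0.29 and 0.25 against 0.14 and 0.01. Without morula replicate 1, 2 of the 12 were higher in each stage.

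Of 33 annexins, S100 proteins and related genes of calcium-dependent membrane binding, 13 rose and 0 fell. The median was 0.53. *ANXA3* stood at -5.88 and -6.08 in morulae and -0.02 and 0.41 in blastocysts, 72.1-fold apart. *ANXA4* was 20.6-fold and *ANXA8L1* 14.4-fold higher in the blastocyst, and *S100A10*, the partner of another annexin, 12.1-fold. *GCA*, the calcium-binding grancalcin, rose 54.7-fold and *MYOF*, a ferlin that repairs the plasma membrane, 52.2-fold, the latter not by its brightest unsaturated probe.

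Junction genes went both ways. Of 50 measured, 18 rose and 5 fell, with a median of 0.47. The claudins, which seal tight junctions, parted: *CLDN1* stood at -3.94 and -4.09 in morulae and 0.09 and 0.32 in blastocysts, and *CLDN10* at 2.96 and 3.69 against -0.18 and -0.05. *CLDN1* was 18.7-fold higher in the blastocyst (adjusted p = 2.2e-05, limma) and *CLDN10* 10.8-fold higher in the morula (adjusted p = 0.00024). *CLDN23* rose 11.9-fold, while *CLDN7* missed the minimum at 1.66-fold higher in the blastocyst.

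Desmosomes, which bind the keratin of neighbouring cells together, showed the same split. *DSC2*, a desmosomal cadherin, stood at -5.04 and -4.82 in morulae and -0.34 and 0.43 in blastocysts, 31.6-fold apart, whereas its relative *DSC3* was 2.48-fold higher in the morula, a call lost with normexp. The plaque proteins *PKP1* and *PPL* rose by 4.22 and 3.46 on the log2 scale. *GRHL1*, a transcription factor of epithelial junction genes, was 23.8-fold higher in the blastocyst, by 1 of its 3 probes. The opposed claudins and cadherins were singled out after their values were seen. With the mean over probes 2 junction genes in place of 5 were higher in the morula.

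Of 42 genes of ion and water transport, 4 rose and 1 fell, together 11.9% beside 17.4% of all genes. *AQP3*, a water and glycerol channel, was 3.40-fold higher in the morula, at 1.86 and 1.68 against 0.00 and 0.01 (adjusted p = 0.00014, limma). *CLIC4*, a chloride channel protein, rose 5.01-fold with all 3 probes. *ATP1B3*, a subunit of the sodium pump, was 2.22-fold higher in the blastocyst by 4 probes, a call that was lost with the series matrix values and without the block. Without the block 2 genes of the list in place of 4 were higher in the blastocyst.

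**Figure D3:**
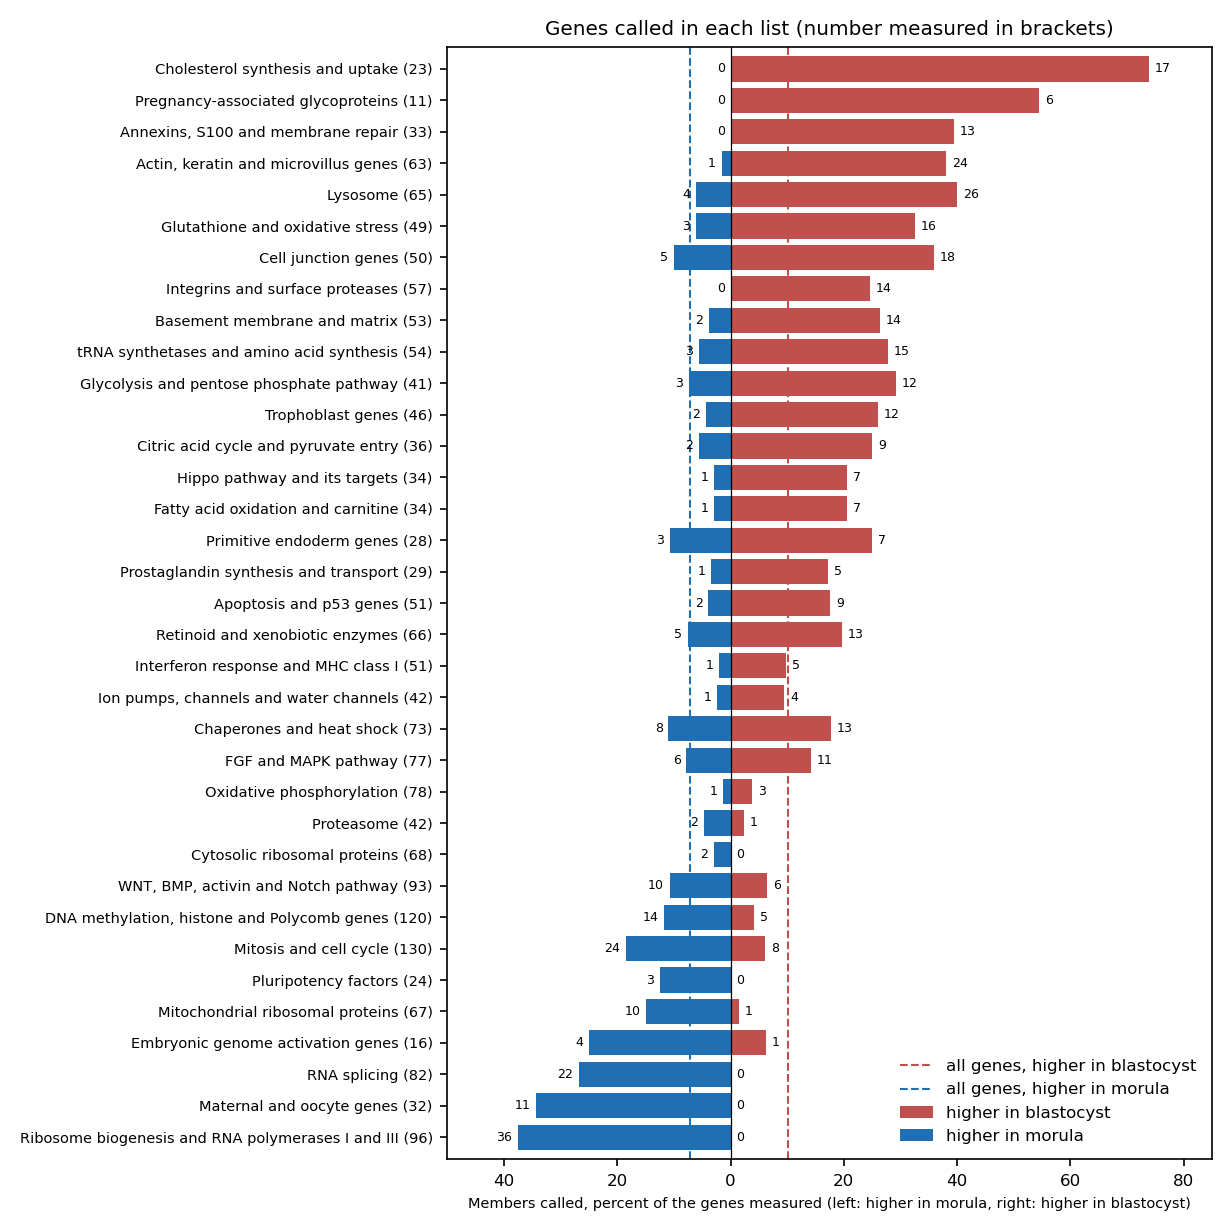
Share of the measured genes of each of 35 lists that were called (x axis, percent; bars to the right, higher in the blastocyst, and to the left, higher in the morula), with the number of genes at each bar and the shares over all genes, 10.2% and 7.15%, as dashed lines. Cholesterol synthesis, with 17 of 23 genes, lies at one end and ribosome biogenesis, with 36 of 96, at the other.

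Cholesterol synthesis was the list with the highest share of calls. Of 23 genes 17 rose, and the median difference was 1.94 on the log2 scale. The members run along the pathway, from *HMGCS1* near its start (15.6-fold), over *IDI1* (12.3-fold), *FDFT1* (7.42-fold) and *SQLE* (9.06-fold), to *CYP51A1* (36.2-fold) and *MSMO1* (6.69-fold) on its sterol branch. *CYP51A1* stood at -5.11 and -5.25 in morulae and at -0.35 and 0.34 in blastocysts. *SREBF2*, the transcription factor that regulates these enzymes, was not called by its brightest probe, at -0.69 and -0.05 against -0.15 and 0.06, but 1 of its 3 other probes was, at 2.42 on the log2 scale.

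In glycolysis and the pentose phosphate pathway 12 of 41 genes rose and 3 fell, with a median of 0.32. *PFKFB3* and *PFKFB4* both set the level of a sugar bisphosphate that activates glycolysis, and they differed in opposite directions. *PFKFB3* stood at -4.08 and -4.25 in morulae and 0.21 and -0.12 in blastocysts, 18.4-fold higher in the latter by 1 of 3 probes. *PFKFB4* stood at 1.98 and 2.38 against 0.18 and -0.30, 4.71-fold higher in the former. This pair was chosen after the values were seen. With the mean over probes 7 genes of the list rose, and without morula replicate 1, 5 fell.

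Lactate dehydrogenase rose in both subunits, *LDHA* 6.08-fold and *LDHB* 3.19-fold, the latter with all 4 probes, and so did triosephosphate isomerase, *TPI1*, at 5.79-fold. *TKTL1*, a transketolase-like gene, was 7.77-fold higher in the morula with all 3 probes, at 2.61 and 3.57 against 0.15 and 0.10. *PGK1*, which lies between *TPI1* and lactate in the pathway, gave 0.10 and 0.25 against -0.49 and 0.63 and was not called (adjusted p = 0.85, limma).

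Of 36 genes of the citric acid cycle and pyruvate entry, 9 rose and 2 fell. *ME1*, the malic enzyme of the cytosol that yields NADPH for lipid synthesis, stood at -3.54 and -2.81 in morulae and 0.22 and 0.36 in blastocysts, 3.46 apart on the log2 scale, and *FH*, fumarase, was 5.40-fold higher in the blastocyst. *PDK1*, which blocks pyruvate dehydrogenase, rose 3.09-fold, and *PDP2*, which reverses that block, was 4.50-fold higher in the morula, at 2.27 and 2.31 against 0.11 and 0.13. *IDH2*, the mitochondrial isocitrate dehydrogenase, was 3.43-fold higher in the morula. *CS*, citrate synthase, did not pass the test, at -0.28 and -0.29 against -0.19 and -0.06.

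Few genes of oxidative phosphorylation were called. Of 78 subunits and assembly genes, 3 rose and 1 fell, together 5.13% beside 17.4% of all genes. The median difference was -0.02 with loess, -0.21 with median centring and -0.23 with the series matrix values. In the sample channel 19 of the 78 were saturated on at least 1 array of a stage and 7 on both, which limits the ratios they can give. *ATP5IF1*, the inhibitor of the ATP synthase, was 3.76-fold higher in the blastocyst, and *UQCR11*, a subunit of complex III, 3.00-fold. *CYCS*, cytochrome c, was at least 2.43-fold higher in the morula. Without morula replicate 2, 5 genes rose, and with the series matrix values 6 were higher in the morula.

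Fatty acid oxidation had 7 of 34 genes that rose and 1 that fell, together 23.5% beside 17.4% of all genes. *DECR1*, needed for unsaturated fatty acids, rose 3.07-fold with 3 of 3 probes and *HSD17B4*, an enzyme of peroxisomal oxidation, 3.47-fold. *SLC25A20*, which carries acylcarnitines into mitochondria, was 2.24-fold higher in the morula. Without blastocyst replicate 1, 2 genes were higher in the morula.

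Lysosomal genes rose in large number, 26 of 65, with 4 higher in the morula and a median of 0.69. *CTSD*, the aspartic protease cathepsin D, stood at -3.92 and -4.40 in morulae and at 0.17 and -0.14 in blastocysts, 18.1-fold apart (log2 standard error 0.11, adjusted p = 2e-05, limma). *ARSA*, a sulfatase, was 16-fold higher and *CTSA*, cathepsin A, 11.6-fold, each by 1 of 2 probes. The membrane proteins *CD63*, *LAMP1* and *SCARB2* rose 10.2-fold, 8.97-fold and 8.11-fold. *CTSS* and *LGMN*, cysteine proteases of the same organelle, differed the other way, 2.52-fold and 2.35-fold higher in the morula, and *CTSS* lost its call with normexp and *LGMN* with the mean over probes.

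Of 49 genes of glutathione and oxidative stress, 16 rose and 3 fell. *HMOX1*, which degrades haem, stood at -4.85 and -5.57 in morulae and 0.27 and -0.48 in blastocysts and was 34.5-fold higher there. The peroxiredoxins *PRDX1* and *PRDX6* rose 8.19-fold and 8.84-fold, *GCLM*, of the enzyme that starts glutathione synthesis, 8.19-fold, *TXN*, thioredoxin, 5.54-fold and *SOD1* 5.69-fold. *TFRC*, the receptor that brings iron into cells, was 9.46-fold higher in the morula, at 2.79 and 3.76 against 0.04 and 0.04. *CAT*, catalase, missed the 2-fold minimum at 1.83-fold higher in the blastocyst.

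Among tRNA synthetases and enzymes of amino acid synthesis 15 of 54 rose and 3 fell. The serine and one-carbon enzymes *PSAT1*, *PSPH* and *MTHFD2* rose 8.71-fold, 4.84-fold and 10.9-fold, *CTH*, which makes cysteine, 10.2-fold and *ASNS*, asparagine synthetase, 4.20-fold. *PHGDH*, the first enzyme of the serine pathway, was not called, at -0.82 and -0.20 against -0.31 and 0.03. The 3 that fell were *AIMP2*, a scaffold of the synthetase complex, *ATF3*, a stress-induced transcription factor, and *DDIT4*, an inhibitor of mTOR, 2.02-fold, 2.15-fold and 2.62-fold, of which *AIMP2* lost its call under 3 alternatives and *ATF3* without blastocyst replicate 1. Outside this list, *GLDC* and *TDH*, which break down glycine and threonine, were among the 15 largest differences on the morula side. *GLDC* was 13.3-fold higher in the morula, at 3.00 and 4.09 against -0.16 and -0.23, and *TDH* 11.7-fold, at 3.16 and 4.35 against 0.15 and 0.27.

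Retinoid and xenobiotic enzymes held 13 genes that rose and 5 that fell, of 66. Retinal is made from retinol and then oxidized to retinoic acid by aldehyde dehydrogenases. Of these, *ALDH1A3* stood at -5.81 and -5.96 in morulae and -0.13 and 0.43 in blastocysts, 65.6-fold apart, while *ALDH1A1* stood at 2.85 and 3.17 against 0.12 and -0.04, 7.83-fold higher in the morula. *ALDH1A3* was called by 1 of its 4 probes and *ALDH1A1* by 2 of 3. *RDH10*, which makes retinal, was 2.93-fold higher in the morula by both probes, a call lost with normexp. *ABCC2*, an export pump of the apical membrane, was 25.2-fold higher in the blastocyst. The count of genes that rose was 8 with the mean over probes.

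Prostaglandins are lipid signals that the early ruminant embryo makes and takes up. Of 29 genes of their synthesis and transport, 5 rose and 1 fell, together 20.7% beside 17.4% of all genes. *PLA2G4A*, which frees arachidonic acid, was 7.40-fold higher in the blastocyst, at -2.56 and -3.20 against -0.03 and 0.04. *AKR1B1*, a prostaglandin F synthase of cattle, rose 7.24-fold with all 4 probes, and *PTGR2*, which inactivates prostaglandins, was 2.48-fold higher in the morula with both. By the mean over probes 2 of the 29 rose.

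Of 57 integrins, surface proteases and their inhibitors, 14 rose and 0 fell. *PLAU*, urokinase, stood at -4.87 and -4.92 in morulae and -0.12 and 0.43 in blastocysts, 33.2-fold apart, though 1 of its 3 probes alone was called. *ST14*, the membrane protease matriptase, rose 8.71-fold and its inhibitor *SPINT2* 3.02-fold. *CD151*, a tetraspanin that holds integrins, was 8.61-fold and *ADAM9* 11.7-fold higher in the blastocyst. The count was 8 with normexp and 6 with the mean over probes.

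Of 53 basement membrane and matrix genes, 14 rose and 2 fell. *AGRN*, agrin, stood at -5.27 and -5.31 in morulae and 0.04 and 0.00 in blastocysts, 39.7-fold apart, and *SDC1*, a surface proteoglycan, at -2.72 and -2.72 against 0.08 and 0.08, 6.98-fold apart. *COL17A1*, a collagen of hemidesmosomes, was 7.41-fold higher in the morula, at 2.12 and 2.91 against -0.22 and -0.53. *COL1A1*, a chain of fibrillar collagen, was not called, with a difference of 0.10 on the log2 scale. By the mean over probes 8 genes rose, and with median centring 4 fell.

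The morula was higher for genes that make and process RNA. Of 96 genes of ribosome biogenesis and RNA polymerases I and III, 36 were higher in the morula and 0 in the blastocyst, and 85 had a difference below 0 (median -0.75). The lowest difference in the list was -2.60, that of *POLR1C*, whose call was lost with normexp. *UTP20*, of the complex that processes ribosomal RNA, stood at 2.31 and 2.42 in morulae and 0.25 and 0.34 in blastocysts, 4.21-fold apart. *RRN3*, which starts transcription by polymerase I, was 3.10-fold higher in the morula, *WDR36* 3.08-fold and *EXOSC1*, of the exosome, 3.31-fold. Without blastocyst replicate 1, 1 gene of the list was called higher in the blastocyst.

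RNA splicing had 22 of 82 genes higher in the morula and 0 in the blastocyst, with a median of -0.68. *LSM1*, counted in the list although its ring binds messages for decay, gave 1.63 and 1.84 against -0.03 and -0.10, 3.47-fold apart. *PHF5A*, of the U2 particle, was 2.73-fold higher in the morula, and both genes were called with both probes. *EIF4A3*, of the exon junction complex, was 2.94-fold and *SNRNP25*, of the minor spliceosome, 3.25-fold higher there. The abundant binding protein *HNRNPA1* stood at 0.04 and -0.16 against 0.06 and -0.33 by its brightest probe, which was saturated in morulae, while its 2 other probes were called, down to -1.71.

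Of 68 cytosolic ribosomal proteins measured, 2 were called, which is 2.94% beside 17.4% of all genes. They were *RPL7L1* and *RPS27L*, 2.68-fold and 2.61-fold higher in the morula, and are relatives of ribosomal proteins rather than standard subunits. *RPS27L* lost its call with the mean over its probes. The median of the list was 0.38 with loess and -0.22 with the series matrix values, so its direction was not settled. These probes were bright: 58 of the 68 were saturated in the sample channel on at least 1 array of a stage and 34 on both, which limits the ratios they can give. Mitochondrial ribosomal proteins had 10 of 67 higher in the morula and 1 in the blastocyst, with a median of -0.48. Together these are 16.4% beside 17.4% of all genes. *MRPL44* and *MRPS10* were 2.24-fold and 2.17-fold higher in the morula, each with both probes. Median centring raised this count to 21. Without morula replicate 2 it was 6. Without morula replicate 1, 2 cytosolic ribosomal proteins were called higher in the blastocyst.

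Protein folding and turnover went both ways. Of 73 chaperones, 13 rose and 8 fell, and the median of 0.10 turned to -0.02 with median centring. Among those that rose were, of the endoplasmic reticulum, *HSP90B1* 2.68-fold, *PDIA3* 3.10-fold and *CALR*, calreticulin, 3.57-fold, the last not with the mean over its probes. *CANX*, calnexin, named here after its value was seen, was not called, with a difference of 0.22. *DNAJC15* and *TIMM44*, which pull proteins into mitochondria, were 4.30-fold and 2.93-fold higher in the morula. Of 42 proteasome genes 2 were higher in the morula, and *PSME2*, an activator subunit induced by interferon, was 2.83-fold higher in the blastocyst. Together these are 7.14% beside 17.4% of all genes. Of the chaperones 8 rose by the mean over probes. The 2 proteasome genes became 7 with the series matrix values and 1 without blastocyst replicate 1.

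**Figure D4:**
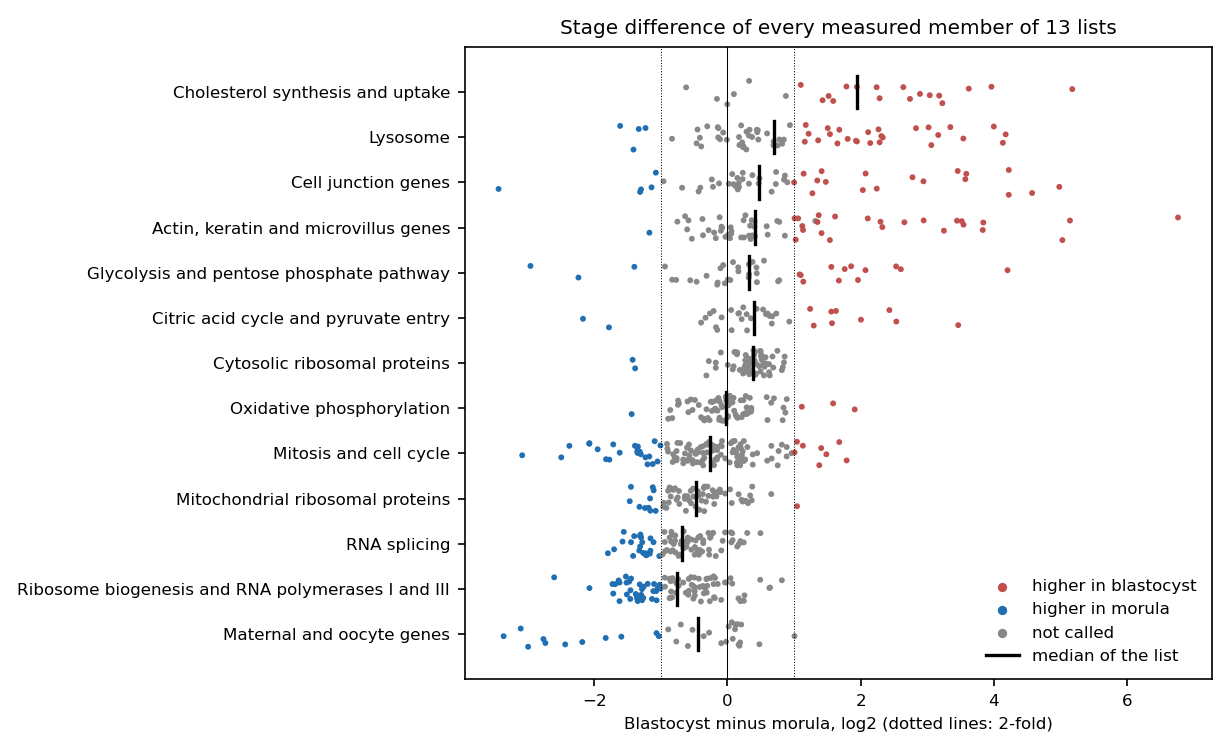
Log2 difference between blastocyst and morula (x axis) of every measured gene of 13 lists (y axis), each point 1 gene coloured by its call, with the median of each list as a black bar and 2-fold as dotted lines. The medians run from 1.94 for cholesterol synthesis to -0.75 for ribosome biogenesis, and all but 2 of the cytosolic ribosomal proteins lie within 2-fold.

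Of 130 genes of mitosis and the cell cycle, 24 were higher in the morula and 8 in the blastocyst, with a median of -0.27. *CCNA1*, the cyclin A of germ cells and early embryos, stood at 2.54 and 3.15 in morulae and -0.24 and -0.24 in blastocysts, 8.47-fold apart. *CCNB1*, the mitotic cyclin, was at least 3.20-fold higher in the morula. *AURKA*, a spindle kinase, was 3.86-fold, *PTTG1*, securin, 5.18-fold and *CHEK1*, the checkpoint kinase, 4.21-fold higher there, each with both probes. Higher in the blastocyst were *CCND2*, a cyclin of the G1 phase, at 3.20-fold, and *CDKN1C*, an imprinted inhibitor of the cycle, at 3.46-fold. The 8 genes that rose were 3 with normexp and 2 with the mean over probes.

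Among 120 genes of DNA methylation, histones and Polycomb, 14 were higher in the morula and 5 in the blastocyst, together 15.8% beside 17.4% of all genes. The embryo loses most of the methylation of its DNA before the blastocyst stage and then gains it anew. *DNMT3A*, which sets new methylation, stood at -3.77 and -4.21 in morulae and -0.21 and 0.16 in blastocysts, 15.6-fold higher there (adjusted p = 8.5e-05, limma). *TDG*, a glycosylase that removes oxidized methylcytosine, stood at -3.79 and -4.15 against 0.18 and -0.05, 16.4-fold apart. Both probes of each gene were called. *DNMT1*, which copies methylation at replication, was 2.80-fold higher in the morula by 2 of 4 probes, but not by the mean of the 4. *EZH2*, the methyltransferase of Polycomb, was 3.66-fold and *H1-3*, a linker histone, 5.50-fold higher in the morula. Median centring gave 23 genes of the list higher in the morula and the mean over probes 7.

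In the Hippo pathway, which reads cell polarity and contact and sets the fate of outer cells, 7 of 34 genes rose and 1 fell. Together these are 23.5% beside 17.4% of all genes. The gene that fell was the coactivator *WWTR1*, or TAZ, at 1.95 and 2.08 in morulae and -0.01 and 0.11 in blastocysts, 3.90-fold apart (adjusted p = 7.7e-05, limma; both probes). Other members rose, among them *WTIP* 7.02-fold, *PTPN14* 4.65-fold and the giant cadherin *FAT1* 6.63-fold, the last by 2 of 8 probes and not by their mean. Of the targets, *CCN1* was 3.60-fold higher in the blastocyst, while *CCN2* stood at -0.29 and -0.42 against 0.01 and 0.06 and was not called. The 7 genes that rose became 4 with the mean over probes.

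In the FGF and MAPK pathway 11 of 77 genes rose and 6 fell, together 22.1% beside 17.4% of all genes. *RGS2*, a brake on G protein signals, was 21.4-fold higher in the morula with all 3 probes, at 3.34 and 5.52 against 0.06 and -0.04. Of the ligands, *FGF19* was 2.35-fold higher in the morula. Of the receptors, *FGFR4* was 2.54-fold higher in the morula and *ERBB2* and *MET* 4.09-fold and 4.62-fold higher in the blastocyst, *FGFR4* not with the mean over its probes. The kinase *MAP2K1* rose 3.60-fold with both probes, and *JUN* 3.49-fold. By the mean over probes 5 genes of the list rose.

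Of 93 WNT, BMP, activin and Notch genes, 6 rose and 10 fell, together 17.2% beside 17.4% of all genes. *ID3*, a target of BMP, was 6.20-fold and *BAMBI*, a decoy receptor, 5.86-fold higher in the morula, both by their brightest probe. *HEY1*, a target of Notch, was 3.65-fold higher there. *CTNNB1*, beta-catenin, was 2.66-fold higher in the blastocyst, at -1.21 and -1.51 against 0.01 and 0.10, and *WNT6* 9.11-fold by 1 of 4 probes but not by their mean. With the mean over probes 3 genes rose and 6 fell.

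Several called genes had a relative in the same list that was called the other way. Beside the pairs above, *PLS1* rose while *PLS3*, another plastin, was 2.25-fold higher in the morula, a call that ended with normexp, with the mean over probes and without blastocyst replicate 2 (log2 difference -0.86). Such pairs were picked after the values were seen, and how often they arise among all genes was not tested.

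The ICM and TE samples were used to compare the called genes within the day 9 embryo. The ICMs were dissected by hand and, per the study's methods, kept some attached TE cells. The difference between ICM and TE uses none of the morula or blastocyst samples. Its p-values use a spread estimated over all arrays, which share the pool, so its calls are not independent of those between the stages. Over all genes 167 (1.33%) were higher in the ICM and 29 (0.231%) in the TE. Of the 29 genes higher in the TE, 24 (82.8%) were also higher in the blastocyst than in the morula and 0 were higher in the morula; the 24 make up 1.88% of the 1280. Of the 167 genes higher in the ICM, 48 (28.7%) were higher in the morula and 23 (13.8%) in the blastocyst. These 48 are 5.34% of the 898 genes higher in the morula, and the 23 are 1.80% of the 1280, so most of the called genes were not called between ICM and TE. With normexp 27 genes were called higher in the ICM and 0 in the TE (limma), and 9 of the 27 were higher in the morula. With median centring 78 were higher in the TE, and between the stages 64 of these rose and 0 fell.

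The genes that were both higher in the TE and in the blastocyst included *ALDH1A3*, *ANXA3*, *GCA*, *PAGE4* and *PAG2* of the largest stage differences, 2.15-fold higher in the TE for *GCA* and 2.12-fold for *PAG2*. Of cholesterol synthesis and its feedback, *HMGCS1* (2.02-fold), *SQLE* (2.03-fold) and *INSIG1* (2.38-fold) belonged to these genes. *GATA3*, a trophoblast factor named here after its values were seen, was 4.86-fold higher in the blastocyst and 2.07-fold higher in the TE. The stage difference was the larger of the 2 in each of these genes, and the choice of several of them by their large stage differences favours this. With normexp none of them was called between TE and ICM.

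The genes higher in both the morula and the ICM included *SOX2* (8.67-fold higher in the ICM), *PRDM14* (2.52-fold), *TKTL1* (6.42-fold), *PFKFB4* (3.99-fold), *IDH2* (2.43-fold), *CBR3* (4.69-fold), a carbonyl reductase, and *FGFR4* (4.81-fold). Their mean was lowest in the TE among the 4 groups, which the choice of these genes favours. Of these 7 genes *SOX2* alone was also called between ICM and TE with normexp. A different set rose from the morula and was higher in the ICM: *NID1*, nidogen of the basement membrane, was 6.87-fold higher in the blastocyst than in the morula and 6.68-fold higher in the ICM than in the TE. *KIT*, a receptor kinase, rose 2.96-fold and was 6.64-fold higher in the ICM, and its stage call was lost with normexp and with the mean over probes. *ACTB* belonged to these genes too, 6.29-fold higher in the ICM by its brightest probe. With normexp *NID1* kept its call between ICM and TE, and *KIT* and *ACTB* did not.

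**Figure D5:**
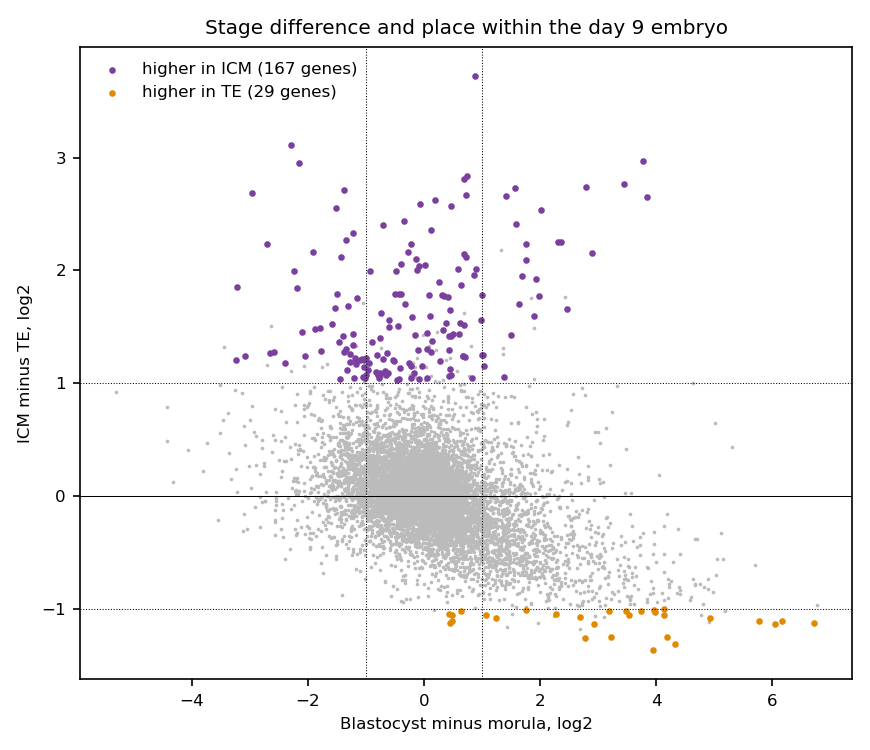
Log2 difference between ICM and TE (y axis) against that between blastocyst and morula (x axis) for 12552 genes, with the 167 genes higher in the ICM in purple, the 29 higher in the TE in orange, other genes in grey and 2-fold as dotted lines. The orange points lie right of 0, while the purple points lie on both sides.

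Lists of markers of other cells that could have entered the samples were measured too. Of 21 cumulus and granulosa genes, 2 were called, which is 9.52% beside 17.4% of all genes. They were *COL1A2* and *HSD3B1*, both higher in the blastocyst, and *HSD3B1* is in the trophoblast list as well. *LUM* and *GJA1*, of the genes with opposed replicates, are in this list. The summed signal of the list was 34868 and 31797 intensity units in morulae and 41608 and 34531 in blastocysts. It was 82814 in TE replicate 1 and 41437 in TE replicate 2, so that the TE samples differed more than those of either stage. *AMH*, a hormone of granulosa cells, was not called, at -0.95 and 0.10 in morulae against -0.40 and 0.06 in blastocysts. Of 15 sperm and spermatid genes 1 was called, which is 6.67% beside 17.4% of all genes. It was *GAPDHS*, higher in the blastocyst by 2.07 on the log2 scale, which is in the glycolysis list as well. The summed signal of the 15 was 21257 and 20126 in morulae and 42059 and 45502 in blastocysts. How much of this rise comes from *GAPDHS* alone was not tested, and the other 14 genes were not called. None of 13 blood and endothelial genes was called, beside 17.4% of all genes. Of the 13, 5 had an unadjusted p under 0.05 (limma), and the sums of the list were 15516 and 18081 against 15054 and 15873. No gene of the first 2 lists lay at the background on both arrays of a stage. The part of these cells in the results was not tested. Without blastocyst replicate 2, 4 cumulus and granulosa genes and 1 blood and endothelial gene were called higher in the blastocyst, without blastocyst replicate 1, 2 cumulus and granulosa genes higher in the morula, and without morula replicate 2, 2 sperm and spermatid genes higher in the blastocyst.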

How the data were processed

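The members and gene lists were chosen with earlier results of these data known. Per the deposited files, each of the 8 arrays gives the mean intensity of every spot and of its local background in both channels, extracted by the authors with Imagene and neither normalized nor background-subtracted. The authors also deposited log2 ratios of sample over pool, normalized by loess and corrected for dye bias of single genes, which served as an alternative here. Their columns had medians of -0.00228 to 0.0117 and correlated with the ratios computed here at r = 0.727 to 0.993 across gene probes, in the direction of sample over pool. Loess was applied to the mean intensities of the gene probes within each array, without background subtraction, and ratios were turned to sample over pool from the labelled dyes. The model with group and dye orientation was fitted to all 8 arrays with limma 3.58.1 in R 4.3.3 (lmFit, eBayes, Benjamini-Hochberg) and tested on simulated data. Dye orientation equals the replicate number, so it stands for both, and no other batch was read from the files. A probe was above background over its local background plus 2 standard deviations and saturated from 65000 intensity units. Of the 12552 gene names, 11600 were current symbols, 922 were older symbols that were updated and 30 were kept as given.

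Genes named in the text were, by rule, the 15 largest differences per direction, the 8 largest called members of each list per direction and 3 uncalled members of each list, the brightest ones, and all members of short lists and marker lists. Genes outside it are said to have been chosen after their values were seen. Alternatives were tested: normexp (offset 50), median centring, the deposited log2 ratios, a fit to the 4 arrays compared, no replicate block, probes in the upper 60% of intensity, the mean over probes, the brightest unsaturated probe, no fold minimum and each of the 4 samples left out. The permutation test and the choice of the most 3′ probe named in the study's methods were not used here.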

Additional observations from a re-analysis of the deposited data

How the results depend on the processing

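The counts of genes called kept within 1.5 times of their main values under most alternatives. Averaging a gene's probes gave 1412 called genes, of which 772 rose and 640 fell, and 738 and 581 of these were the same genes as with the brightest probe. Without a fold minimum 5002 genes passed, of which 2651 rose and 2351 fell. Leaving out 1 of the 4 samples gave 2094 to 2237 called genes, of which 1222 to 1312 rose and 862 to 969 fell. Normexp gave 907 and 732 genes in the 2 directions. No gene called with and without such a change of setting reversed its direction, but the brightest unsaturated probe of *DSP* stood at -0.27 and that of *SNRPD2*, a core protein of the spliceosome, at 0.13, opposite to their brightest probes and not called. Without the replicate block 1268 and 893 genes were called, and 3 of the 318 called genes under the naming rule lost their call, *ATP1B3*, *CLIC1* and *NOG*. Of the same 318 genes, 42 lost their call with normexp, 74 with the mean over probes, 14 with median centring, 8 with the deposited log2 ratios and 10 to 21 with 1 sample left out. Of the genes called between ICM and TE, normexp gave 4 in place of 23 that were higher in ICM and blastocyst, 9 in place of 48 higher in ICM and morula and 0 in place of 24 higher in TE and blastocyst, while median centring gave 64 of these last. The causes were not tested. Dim signal and saturation limit the folds of 37 called genes to lower bounds.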

Other observations

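Of 51 genes of cell death and p53 measured, 9 rose and 2 fell, together 21.6% beside 17.4% of all genes. *PERP*, a p53 target of desmosomes, stood at -2.89 and -3.07 in morulae and at -0.12 and 0.05 in blastocysts and was 7.69-fold higher there. *TP73*, a relative of p53, was 5.26-fold higher in the blastocyst, *AIFM1*, a mitochondrial flavoprotein, 6.35-fold and *SESN2*, a stress-induced sestrin, 3.52-fold. *BCL2L11*, which promotes apoptosis, was 2.21-fold higher in the morula, a call lost with normexp. *MCL1*, which restrains it, was not called, at 0.18 and 0.03 against 0.07 and 0.51.

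Of 51 genes of the interferon response and MHC class I, 5 rose and 1 fell, together 11.8% beside 17.4% of all genes, and without blastocyst replicate 2, 9 rose and 2 fell. *IFI30*, a lysosomal thiol reductase, stood at -3.31 and -3.52 in morulae and at -0.05 and 0.19 in blastocysts, 11.2-fold apart by both probes. *IRF5*, a transcription factor of this response, was 2.74-fold higher in the blastocyst. *MX1*, a classical target of interferon, was 4.13-fold higher by 1 of 3 probes but not by their mean.

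The 17 genes with opposed replicates, chosen after their values were seen, showed a common order of samples. Choosing them by opposed differences favours this order or its reverse in each gene, so the values below describe the choice and are no separate result. All 17 lay above the pool in blastocyst replicate 1 and below it in blastocyst replicate 2, with medians of 0.68 and -1.39 on the log2 scale. They lay below the pool in morula replicate 1 (median -1.55), while 13 of 17 lay above it in morula replicate 2 (median 0.45). In the ICM and TE samples the medians ran from -1.58 to -1.12. *IGFBP7*, a secreted binding protein, stood at -3.24 and 0.04 in morulae and at 0.77 and -1.93 in blastocysts, *HTRA1*, a secreted protease, at -2.82 and -0.04 against 0.98 and -3.17, and *SFRP2*, an inhibitor of WNT, at -1.18 and 1.78 against 0.68 and -1.57. By these medians the replicate labelled with Cy5, replicate 2 of each stage, was the higher one in morulae and the lower one in blastocysts. The choice of these genes favours such opposite orders. The part of the embryos pooled was not tested.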
